A study of Mus musculus with 6 samples.

Results

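The miR-15, miR-16 and miR-195 family was examined in the liver of diabetic mice. Its members were taken by name, as the entries of mouse miR-15a, miR-15b, miR-16, miR-195a and miR-497a, and 11 of the 1039 mature miRNAs of the table carried such a name, 5 of them 5p arms and 6 of them 3p arms. Small RNA was sequenced from 6 livers, 3 in the J group and 3 in the M group, each from a different mouse, and how these mice were picked from larger groups is not given. All were wild type ICR mice (an outbred stock), 30 weeks old. All were fed a high-fat diet (HFD), for 12 weeks before the treatment began and, as the authors state, through the rest of the experiment. The J group then received Jiang Tang Xiao Ke (JTXK) granule, a Chinese herbal formula for diabetes, by gavage for 8 weeks, and the M group (the model group) received sterile water. Both groups are thus HFD-fed, the diabetes is one induced by diet and not by a mutation, and chow-fed libraries were not analysed here. The comparison asks which hepatic miRNAs differ between treated and untreated diabetic mice. Libraries are written J1 to J3 and M1 to M3.

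A miRNA is cut from a hairpin precursor that can give a product from either side, the 5p and the 3p arm, and 1 arm usually predominates. The seed, bases 2 to 8, is the main determinant of which messenger RNAs it binds, so miRNAs with a common seed are grouped as a family. The miR-15/16 family is known as a brake on the cell cycle through cyclins D and E and their kinases, and on the survival protein Bcl2. The Mir15a and Mir16-1 genes lie in a region that is often lost in chronic lymphocytic leukaemia, and miR-195 is known from the arrest of heart muscle cell division after birth.

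The mature sequences are shown because the family is defined by them. RefSeq (GRCm38.p6) gave a sequence for all 11 members. They are written 5′ to 3′, with the seed in capitals. The 5p arms are:
mmu-miR-15a-5p: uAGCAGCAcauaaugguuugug
mmu-miR-15b-5p: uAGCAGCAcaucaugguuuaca
mmu-miR-16-5p: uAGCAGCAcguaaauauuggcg
mmu-miR-195a-5p: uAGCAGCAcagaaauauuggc
mmu-miR-497a-5p: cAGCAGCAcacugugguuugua

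In RefSeq all 5 carry the seed AGCAGCA. RefSeq lists 1679 mature mouse names, of which 10 held it, and 6 of those 10 were in the deposited table. The only one of these 6 outside the family by name was miR-322-5p, and miR-195b, miR-6342, miR-6353 and miR-6419 were not analysed here. In pairwise comparison, the 5p arms differed at 2 to 11 positions when aligned from the 5′ end. The closest pair was miR-16-5p and miR-195a-5p, which differed at 2 of 21 positions, while miR-15a-5p and miR-15b-5p differed at 4 of 22 and miR-16-5p and miR-497a-5p at 11 of 22. How the authors assigned a read that matched several miRNAs is not given in the sources used here, so reads could have been divided differently between miR-16-5p and miR-195a-5p. The entry of miR-16-5p also bears the code 7C-G, whose meaning is not given. The base at position 7 of miR-16-5p in RefSeq is C, and 28 of the 762 mouse entries had a code of this form. Position 7 lies within the seed, and the table holds no read sequences, so whether the reads counted for miR-16-5p carried the printed seed was not tested.

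The 3p arms are shown to make plain that the shared seed is a property of the 5p side:
mmu-miR-15a-3p: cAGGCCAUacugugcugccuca
mmu-miR-15b-3p: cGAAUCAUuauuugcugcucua
mmu-miR-16-1-3p: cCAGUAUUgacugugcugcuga
mmu-miR-16-2-3p: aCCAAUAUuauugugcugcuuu
mmu-miR-195a-3p: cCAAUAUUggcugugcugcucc
mmu-miR-497a-3p: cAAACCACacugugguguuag

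None of the 6 carried the seed of the 5p arms (0 of 6). The 3p arms of miR-16-1 and miR-16-2 differ in sequence, whereas their 5p arms are identical. Reads of miR-16-5p therefore cannot be assigned to a locus, and reads of the 3p arms can.

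The members come from 3 clusters of paired hairpins (GENCODE annotation, GRCm38). On chromosome 14, minus strand, Mir15a (61632027 to 61632110) lies in an intron of the non-coding gene Dleu2, and Mir16-1 (61631880 to 61631972) lies 54 bases away within the same gene, where it overlaps an exon of an annotated transcript. On chromosome 3, plus strand, Mir15b (69009772 to 69009835) and Mir16-2 (69009902 to 69009996) are 66 bases apart in an intron of Smc4, which encodes a condensin subunit. On chromosome 11, plus strand, Mir497 (70234717 to 70234800) and Mir195a (70235042 to 70235135) are 241 bases apart, with no annotated host gene over them, and Mir497b overlaps Mir497 on the opposite strand. In RefSeq the mature miR-16-5p is at chr14:61631936-61631957 and at chr3:69009918-69009939.

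Values are RPM, the reads of a miRNA scaled to a library total of 1000000 miRNA reads. The libraries held 2626353 to 4314134 miRNA reads, and 3 reads equalled 0.695 to 1.14 RPM. Family members took 9605 to 15844 reads per library. Their share of all miRNA reads was 0.282%, 0.282% and 0.342% in J1, J2 and J3 and 0.504%, 0.292% and 0.369% in M1, M2 and M3. M1, the shallowest library, stood apart from the others. It is labelled MX1_3, whereas the other labels begin with GJ2 or MX2, and the meaning of these prefixes is not given. Its summed leukocyte markers (5 miRNAs including miR-142a, miR-223 and miR-155, none at 0 in any library) were 4228 RPM against 595 to 1080 in the other libraries. Its bile duct markers (the miR-200 and miR-141 group, 5 of 5 found) summed to 4298 RPM against 950 to 2379, and its smooth muscle and stellate cell markers (4 of 5 found) to 25242 RPM against 12582 to 20214. Single markers weighed in these sums, and miR-142a-5p alone gave 3709 of the 4228 RPM. M1 was the highest library for 3 of 5 leukocyte, 4 of 5 bile duct and 2 of 4 smooth muscle and stellate markers. Of the last group, miR-145a-5p and miR-214-3p were highest in M3. The hepatocyte markers (miR-122, miR-192, miR-194 and miR-148a) summed to 391597 to 419287 RPM in the J group and 392287 to 450543 in the M group, so markers of the labelled tissue were abundant in every library. In whole liver, fewer cells of a type cannot be told apart from less RNA per cell.

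The 5p arms spanned a wide range of levels. miR-16-5p was the leading member, ranked 36 of 1039 by mean RPM, followed by miR-195a-5p at 109, miR-15a-5p at 119, miR-15b-5p at 158 and miR-497a-5p at 178. Over the 6 libraries the mean levels were 2961 ± 730 RPM for miR-16-5p, 185 ± 27.9 for miR-195a-5p, 165 ± 40.3 for miR-15a-5p, 66.8 ± 60.9 for miR-15b-5p and 41.8 ± 10.2 for miR-497a-5p (SD, n = 6). RPM counts reads of mature miRNAs of 21 or 22 bases, so length hardly enters, but adapter ligation can favour some sequences over others and this was not measured.

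**Figure D1:**
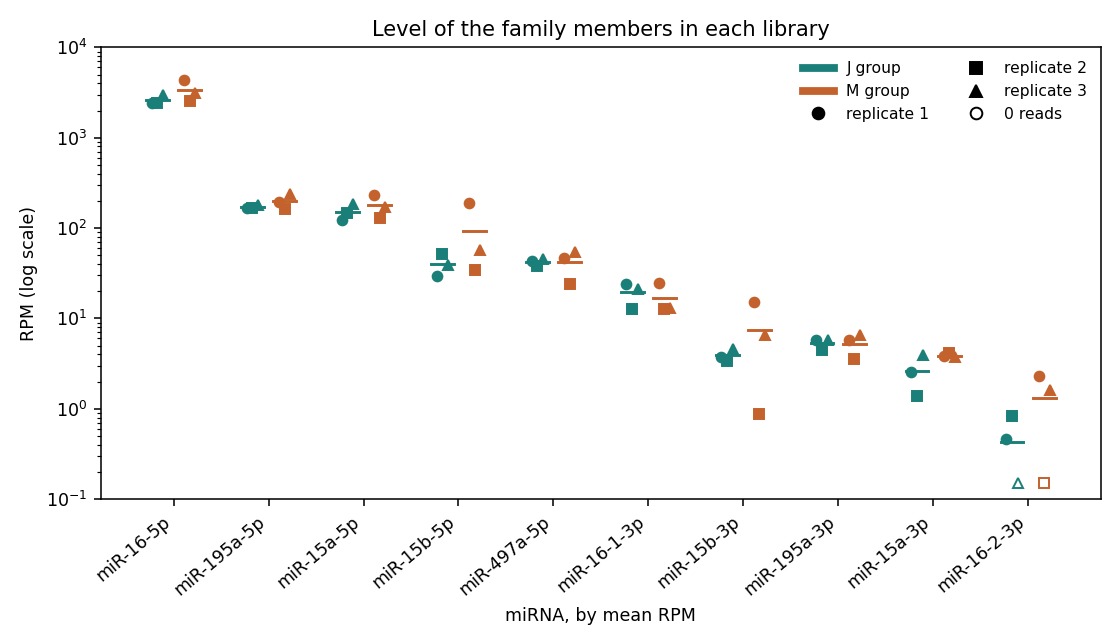
Level of 10 family members in each of the 6 libraries, in RPM on a log axis, ordered by mean RPM. Points are libraries (symbol by replicate, open at the base of the axis for 0 reads) and bars are group means. miR-16-5p lies between 2398 and 4323 RPM, and M1 is far above the other libraries for miR-15b-5p, at 189 RPM.

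The order was compared within libraries, between the 4 neighbouring pairs, on log2(RPM + 1) with an exact two-sided sign-flip permutation test whose smallest p for 6 libraries is 0.0312. The order itself came from the mean RPM of these same 6 libraries, so the pairs and their directions were not fixed in advance. miR-16-5p exceeded miR-195a-5p in 6 of 6 libraries, by 3.98 ± 0.26 on the log2 scale (SD, n = 6, exact p = 0.0312, adjusted p = 0.0625), a 16.0-fold ratio of mean RPM. miR-15a-5p exceeded miR-15b-5p in 6 of 6 libraries as well, by 1.58 ± 0.69 (exact p = 0.0312, adjusted p = 0.0625), with the narrowest gap, 0.30, in M1. These gaps are the widest in the order. Both reached the smallest p that the test can give, and neither passed after adjustment over the 4 pairs.

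The other neighbours did not differ beyond their spread. miR-195a-5p was above miR-15a-5p in 4 of 6 libraries, by 0.18 ± 0.29 (range -0.25 to 0.47, exact p = 0.188, adjusted p = 0.250). miR-15b-5p was above miR-497a-5p in 4 of 6 libraries, by 0.38 ± 0.87 (range -0.52 to 1.98, exact p = 0.406, adjusted p = 0.406). Without M1 this mean difference was 0.06.

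miR-16-5p held a nearly constant part of the family. It made up 85.8%, 85.0% and 85.9% of the members' reads in J1, J2 and J3 and 85.8%, 87.2% and 85.1% in M1, M2 and M3. The summed level of the 5 5p arms was 2785, 2800 and 3389 RPM in the J group (2991 ± 344, SD, n = 3) and 4987, 2900 and 3657 RPM in the M group (3848 ± 1057, SD, n = 3). M1 was the highest library and the groups overlapped. The J group minus M group difference of the summed level was -0.33 on the log2 scale, and -0.13 without M1. Without miR-16-5p the sums were 365, 402 and 446 RPM in the J group and 664, 353 and 519 RPM in the M group, and again overlapped.

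No family member passed the thresholds between the groups. The groups were compared by limma, which fitted a linear model to log2(RPM + 1) of 548 miRNAs, those whose mean exceeded 1 RPM in either group. To pass, a miRNA had to differ by more than 0.3 on the log2 scale with p under 0.05 before adjustment. Of the 10 members tested 0 passed, 0 had an unadjusted p under 0.05, and edgeR and DESeq2 on the recovered reads called 0 as well. Over all miRNAs tested 29 of 548 passed (5.29%), 8 higher and 21 lower in the J group, with median-of-ratios scaling giving 17 higher and 13 lower and quantile normalization 20 higher and 11 lower, and 0 had an adjusted p under 0.05. At 5.29% a set of 10 with none past the thresholds is close to the background. The J and M libraries overlapped for all 10 members, so 0 of 10 were separated, beside 74 of 548 miRNAs (13.5%).

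The median log2 difference (J minus M) was -0.27 over the 10 members and -0.21 over the 5p arms, beside -0.13 over all 548 miRNAs. It was below 0 for 7 of 10 members and for 58.9% of all miRNAs. The scaling decided the sign for the 5p arms, whose median was -0.10 with median-of-ratios scaling (all miRNAs -0.04) and 0.09 with quantile normalization (all miRNAs 0.08).

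**Figure D2:**
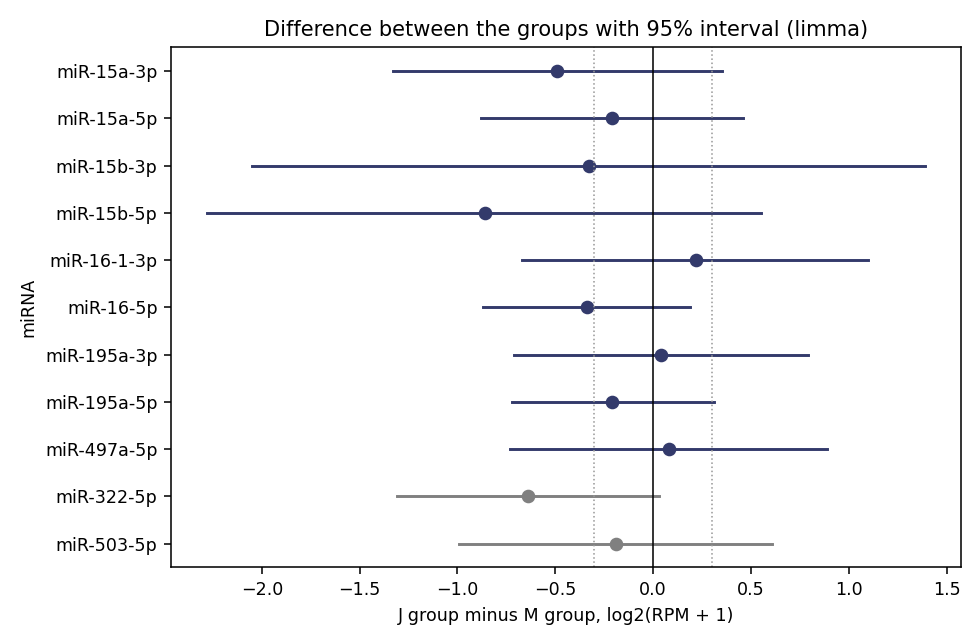
J group minus M group difference in log2(RPM + 1) with its 95% interval from limma, for 9 family members and, in grey, for miR-322-5p and miR-503-5p. Dotted lines mark 0.3 in either direction. Every interval spans 0, and those of miR-15b-5p (-2.28 to 0.55) and miR-15b-3p (-2.05 to 1.39) are the widest.

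miR-16-5p, the most abundant member, measured 2420, 2398 and 2943 RPM in the J group (2587 ± 308, SD, n = 3) and 4323, 2547 and 3138 RPM in the M group (3336 ± 904, SD, n = 3). M1 was the highest and J2 the lowest library, and M2 lay below J3. The log2 difference was -0.34 (SE 0.22, 95% interval -0.87 to 0.19, adjusted p = 0.71, limma). It stayed below 0 in 16 of 16 alternative settings and became -0.13 without M1.

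miR-195a-5p, the nearest relative of miR-16-5p in sequence, was the steadiest of the 5p arms, with a 1.44-fold ratio of the highest to the lowest library. It measured 168, 165 and 178 RPM in the J group (170 ± 6.60, SD, n = 3) and 195, 164 and 237 RPM in the M group (199 ± 36.1, SD, n = 3). M3 was the highest library, and M2 lay just below the J group. The log2 difference was -0.21 (SE 0.22, 95% interval -0.72 to 0.31, adjusted p = 0.78, limma). It was -0.07 without M3, -0.33 without M2 and 0.09 with quantile normalization.

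miR-15a-5p, the chromosome 14 partner of miR-16-1, measured 124, 147 and 184 RPM in the J group (152 ± 29.9, SD, n = 3) and 233, 130 and 171 RPM in the M group (178 ± 51.5, SD, n = 3). M1 was again the highest, and M2 and M3 lay within the range of the J group. The log2 difference was -0.21 (SE 0.29, 95% interval -0.88 to 0.46, adjusted p = 0.81, limma). It was 0.00 without M1 and 0.09 with quantile normalization.

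miR-15b-5p, the chromosome 3 partner of miR-16-2, varied most among the 5p arms, with a 6.43-fold ratio of the highest to the lowest library. It measured 29.4, 51.6 and 39.2 RPM in the J group (40.1 ± 11.1, SD, n = 3) and 189, 34.0 and 57.3 RPM in the M group (93.5 ± 83.7, SD, n = 3). M1 stood 3.30-fold above the next library, M3, and their 95% Wilson intervals, which cover counting error only, were apart (173 to 207 RPM in M1, 50.5 to 64.9 RPM in M3). The log2 difference was -0.86 (SE 0.60, 95% interval -2.28 to 0.55, adjusted p = 0.71, limma). Single libraries decided it. Without M1 it was -0.17 and the M group mean 45.6 RPM, and without M2 it was -1.39 and past the thresholds (adjusted p = 0.58, with adjusted p from 0.57 to 0.93 over the alternatives). M1 also had the highest leukocyte, bile duct and stellate marker sums given above, though not every marker in them was highest there. The part of these markers in the level of miR-15b-5p was not tested.

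miR-497a-5p, which shares its cluster with miR-195a, measured 42.7, 37.7 and 45.3 RPM in the J group (41.9 ± 3.85, SD, n = 3) and 47.2, 24.0 and 54.0 RPM in the M group (41.8 ± 15.7, SD, n = 3). The M group spanned the whole range of the J group. The log2 difference was 0.08 (SE 0.34, 95% interval -0.73 to 0.89, adjusted p = 0.95, limma). It was -0.27 without M2, 0.30 without M3 and 0.36 with quantile normalization.

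**Figure D3:**
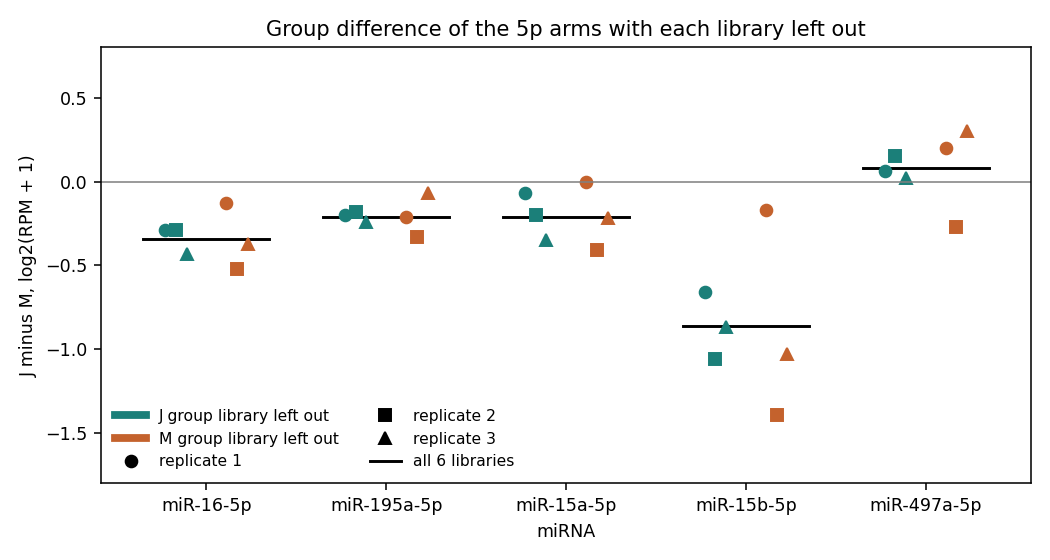
J group minus M group difference in log2(RPM + 1) of the 5p arms with each library left out in turn. Black bars give the difference over all 6 libraries and points the difference without the library given by colour and symbol. For miR-15b-5p the difference ranges from -1.39 without M2 to -0.17 without M1, the widest range of the 5.

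The 3p arms were scarce. miR-16-1-3p was the highest of them, with 24.3, 12.8 and 21.0 RPM in the J group and 24.7, 12.6 and 13.0 RPM in the M group, and a log2 difference of 0.22 (SE 0.38, adjusted p = 0.85, limma), which was 0.04 without J1 and 0.52 without M1. miR-15b-3p measured 3.71, 3.35 and 4.63 RPM in the J group and 15.2, 0.880 and 6.52 RPM in the M group, where M2 rests on 3 reads, with a difference of -0.33 (SE 0.73, adjusted p = 0.88, limma). It was the other member to pass the thresholds without M2, at -1.18 (adjusted p = 0.58, with adjusted p up to 0.96 over the alternatives), and was 0.37 without M1. M1 was thus the highest library for both arms of miR-15b.

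miR-195a-3p ranged from 3.52 to 6.52 RPM and miR-15a-3p from 1.40 to 4.10 RPM over the 6 libraries. Their log2 differences were 0.04 (SE 0.32, adjusted p = 0.97, limma) and -0.49 (SE 0.36, adjusted p = 0.71, limma), the latter on 5 to 16 reads per library and between -0.22 (without J2) and -0.74 (without J3) with single libraries left out. At such low levels the added RPM also set its size, which was -0.14 with 10 RPM and -0.66 with 0.1 RPM. miR-16-2-3p had 2, 3 and 0 reads in the J group and 6, 0 and 7 reads in the M group, too few for a reliable fold. Its fitted log2 difference, -0.56, was still counted in the median over the 10 members and among the 7 below 0. miR-497a-3p had 0 reads in each J library and 0, 1 and 1 reads in the M group, and was the only member below the filter on low values.

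The 5p arm predominated in each hairpin where the arms could be assigned. Over the 6 libraries miR-15a gave 3368 reads of the 5p arm and 67 of the 3p arm (98.0% 5p), miR-195a 3907 and 112 (97.2%), and miR-497a 884 and 2 (99.8%). miR-15b was the least one-sided, with 1281 and 112 reads (92.0%). The ratio of the arms, as the difference of their log2(RPM + 1), was compared between the groups by an exact two-sided permutation test, which cannot give a p below 0.1 with 3 libraries against 3. It was 5.44 ± 0.44 in the J group and 5.16 ± 0.46 in the M group for miR-15a (exact p = 0.50), 3.04 ± 0.49 and 3.57 ± 0.63 for miR-15b (exact p = 0.30), and 4.77 ± 0.15 and 5.02 ± 0.16 for miR-195a (exact p = 0.20; SD, n = 3). The groups overlapped for each hairpin, and adjusted p over the 4 ratios compared, 1 of them the ratio of the 3p arms of miR-16 below, were 0.40 to 0.50.

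The chromosome 14 and chromosome 3 clusters could be compared through the members that are specific to them. Of the 3p reads of miR-16, 374 came from miR-16-1 and 18 from miR-16-2, a 20.8-fold ratio (95.4% from chromosome 14). Of the 5p reads of the partners, 3368 were miR-15a and 1281 miR-15b, a 2.63-fold ratio (72.4% from chromosome 14). Both of these readouts favoured chromosome 14, by different amounts. The 3p reads of the partners went the other way, with 67 of miR-15a and 112 of miR-15b. With 0 reads of miR-16-2-3p in J3 and M2, the ratio of miR-16-1-3p to miR-16-2-3p in single libraries depends on the RPM added before taking logs. Its log2 difference between the groups (J minus M) was 0.78 with an added 1 RPM (exact permutation p = 0.30, adjusted p = 0.40). It was 1.22 with 0.1 RPM and 0.25 with 10 RPM, so its size is not settled.

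The share of miR-15a-5p within the miR-15 pair was 80.8%, 74.0% and 82.4% in J1, J2 and J3 and 55.1%, 79.3% and 74.9% in M1, M2 and M3. M1 was the one low library, with a 95% Wilson interval of 52.2% to 58.1%. On chromosome 11, miR-195a-5p made up 79.8%, 81.4% and 79.7% of the miR-195a and miR-497a 5p reads in the J group and 80.5%, 87.2% and 81.4% in the M group. Here M1 lay among the others and M2 was the highest library.

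**Figure D4:**
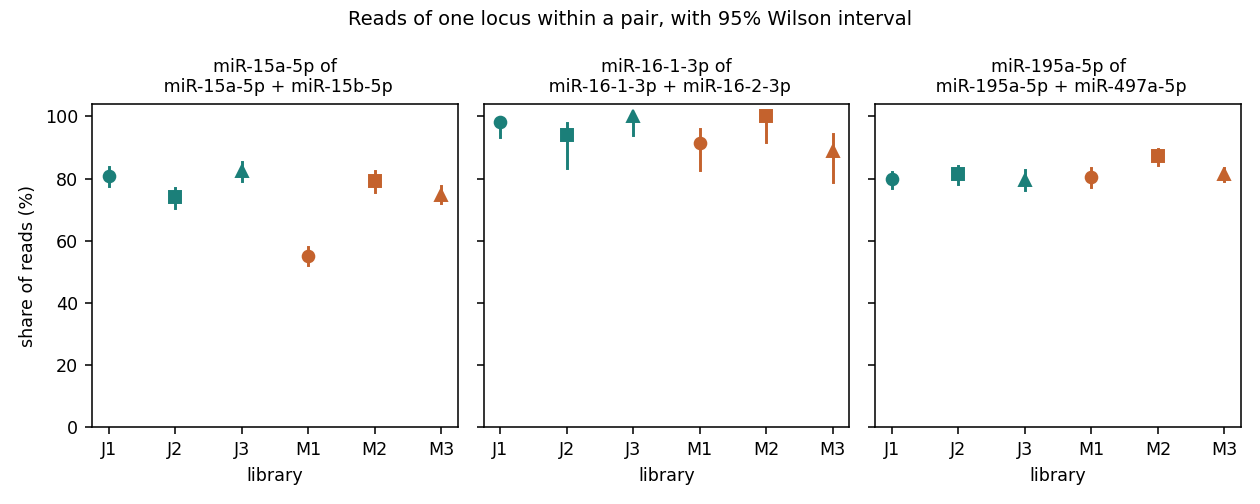
Share of reads (%) of 1 locus within a pair in each library, with 95% Wilson intervals for counting error. The panels give miR-15a-5p within the miR-15 pair, miR-16-1-3p within the 3p arms of miR-16, and miR-195a-5p within the chromosome 11 cluster. M1 is low in the first panel, at 55.1%, and lies among the other libraries in the last, at 80.5%.

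M1 was the highest of the 6 libraries for 6 of the 10 members tested, beside 184 of 548 miRNAs (33.6%). These 6 were miR-16-5p, miR-15a-5p, miR-15b-5p, miR-15b-3p, miR-16-1-3p and miR-16-2-3p, which lie on chromosomes 14 and 3. For the last pair the lead of M1 was within counting error, since miR-16-1-3p measured 24.7 RPM in M1 and 24.3 RPM in J1, and miR-16-2-3p had 6 reads in M1 and 7 reads in the deeper M3. For miR-195a-5p, miR-195a-3p and miR-497a-5p, on chromosome 11, M3 was the highest and M2 the lowest library, a pattern picked out after the values were seen and found in 13 of 548 miRNAs (2.37%). Part of it was within counting error. The Wilson intervals of M2 and J2 overlapped for miR-195a-5p (151 to 179 and 152 to 179 RPM), as did those of M3 and M1 for miR-497a-5p (47.5 to 61.4 and 39.6 to 56.3 RPM) and those of M3 and J1 for miR-195a-3p (4.51 to 9.42 and 3.93 to 8.55 RPM). For miR-195a-5p those of M3 and M1 were apart (222 to 252 and 179 to 213 RPM). So were those of M2 and J2 for miR-497a-5p (19.4 to 29.8 and 31.8 to 44.6 RPM). For miR-15a-3p M2 was the highest. The red blood cell markers (miR-451a, miR-144 and miR-486b, 4 of 5 found, none at 0) had the same extremes, with a summed level of 13098 RPM in M3, 3914 RPM in M2 and 5842 to 8671 RPM in the other libraries, and their part in the levels of the chromosome 11 members was not tested.

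The miRNA with the family seed but another name, miR-322-5p, was examined beside the members. It comes from the X chromosome and its sequence is shown with that of miR-503-5p, its cluster partner, which shares bases 2 to 7 only:
mmu-miR-322-5p: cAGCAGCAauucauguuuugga
mmu-miR-503-5p: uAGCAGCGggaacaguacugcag

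miR-322-5p measured 45.7, 50.8 and 56.7 RPM in the J group (51.0 ± 5.51, SD, n = 3) and 107, 81.8 and 58.2 RPM in the M group (82.2 ± 24.2, SD, n = 3). Its groups did not overlap, although J3 and M3 were close. The log2 difference was -0.64 (SE 0.29, 95% interval -1.31 to 0.03, adjusted p = 0.71, limma), short of the threshold on p. It passed without M3 (-0.86, adjusted p = 0.56) and when only miRNAs with a mean above 10 RPM were tested (-0.64, adjusted p = 0.54), with adjusted p up to 0.85 over the alternatives. It was smaller, and did not pass, with quantile normalization (-0.42) and without M1 (-0.43). miR-503-5p measured 6.26, 5.58 and 6.42 RPM in the J group and 11.0, 4.98 and 6.29 RPM in the M group, with overlap.

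Other miRNAs known for roles in the cell cycle were taken as 2 lists. The 12 listed as restraining it include let-7a, let-7b, let-7c, let-7g, the miR-34 miRNAs, miR-26a, miR-29a, miR-322, miR-503 and miR-449a. Of these 11 were tested, 0 were higher and 3 were lower in the J group, beside 21 of 548 miRNAs lower (3.83%). The median log2 difference was -0.35, beside -0.13 over all miRNAs. The study had reported each let-7 miRNA of this list as lower in these livers, and the list was made with earlier results known. Its count and median are therefore not independent of that choice. The 3 were let-7a-5p at -0.54 (SE 0.14, adjusted p = 0.43), let-7c-5p at -0.34 (SE 0.13, adjusted p = 0.71) and let-7g-5p at -0.44 (SE 0.15, adjusted p = 0.71), by limma. The let-7 miRNAs are near-identical in sequence, so reads could be divided between them. All 3 stayed below 0 under each scaling, but the calls did not all hold. let-7c-5p was at -0.23 with median-of-ratios scaling and -0.07 with quantile normalization, short of 0.3, and the number of the list lower in the J group was 1 and 2 under these scalings. It was 0 by edgeR and 0 by DESeq2, 4 without M1, 1 without M2 and 1 without J3. Over the 16 alternatives the differences themselves ranged from -0.61 to -0.43 for let-7a-5p, from -0.54 to -0.33 for let-7g-5p and from -0.39 to -0.07 for let-7c-5p. The median of the list was -0.24 with median-of-ratios scaling (all miRNAs -0.04) and -0.09 with quantile normalization (all miRNAs 0.08).

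Of 12 listed as promoting the cell cycle (members of the miR-17 and miR-106b clusters, miR-221, miR-222 and miR-21a), 12 were tested and 0 passed in either direction by limma (0 with p under 0.05), with a median of -0.48, beside -0.13 over all miRNAs. By edgeR and by DESeq2 1 was lower, miR-18a-5p, and by limma 5 were lower without M2, 1 was lower without J1 (miR-92a-3p) and 1 was higher without J2 (miR-21a-5p). The median was -0.14 without M1 and -0.83 without M2. M1 was the highest library for 9 of these 12. Of the marker lists, the smooth muscle and stellate list had 3 of 4 members lower in the J group, miR-145a-5p at -0.46, miR-199a-5p at -0.63 and miR-214-3p at -0.55 (adjusted p = 0.71, 0.43 and 0.71, limma), beside 3.83% of all miRNAs. The study had reported each miRNA just named as lower in these livers, and the list was made with earlier results known. The count of the list is therefore not independent of that choice. This count was 1 with median-of-ratios scaling, by edgeR and by DESeq2, 0 with quantile normalization, 2 without M1, and 1 without J2 or without M3. The differences of these 3 stayed beyond 0.3 with both scalings, at -0.35 and -0.32 for miR-145a-5p, -0.52 and -0.43 for miR-199a-5p and -0.45 and -0.42 for miR-214-3p (median-of-ratios and quantile).

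The other marker lists had 0 members past the thresholds by limma (0 with p under 0.05), and their medians, to be read beside -0.13 over all miRNAs, moved with single libraries. The leukocyte median was -0.56, with -1.03 without J3 and -0.18 without J1 as the extremes over the 16 alternatives. The bile duct median was -0.68, with -1.17 without M3 and -0.24 without M1. The hepatocyte median was -0.00 (-0.14 without J3 to 0.23 without J1), the red blood cell median -0.13 (-0.53 without M2 to 0.34 without M3, and 0.25 with quantile normalization), and the single endothelial marker found was at 0.09 (-0.10 without J2 to 0.28 with quantile normalization). Some alternatives called a marker. Among hepatocyte markers miR-192-5p was higher in the J group by edgeR, with median-of-ratios scaling and without M2, and miR-148a-3p was lower without J1. Among leukocyte markers miR-142a-3p was lower by edgeR and without M2, miR-142a-5p was lower by DESeq2, with no filter and without M2, and miR-155-5p was lower without J3. Of the bile duct markers miR-200b-3p was lower without J3 and without M3 and miR-429-3p without M3, and of the red blood cell markers miR-144-3p was higher without M3. Their part in the levels of the family was not tested.

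The miRNAs whose pattern over the 6 libraries was most like that of each 5p arm were found by Pearson's r of log2(RPM + 1) among 281 miRNAs with a mean above 10 RPM. These are descriptions, since the points share libraries and M1 weighs in many of them. miR-16-5p was most like miR-1198-5p (r = 0.98), miR-3473b (0.97) and miR-142a-5p (0.97), the last of which is a leukocyte marker that measured 3709 RPM in M1 and 525 to 961 RPM elsewhere. miR-15b-5p was most like miR-93-5p (0.98), miR-103-3p (0.98) and miR-181c-5p (0.97), and miR-15a-5p was most like miR-132-3p (0.94), miR-16-5p (0.93) and miR-1198-5p (0.92). miR-195a-5p was most like miR-144-5p (0.95), miR-362-3p (0.89) and miR-140-3p (0.88), and miR-497a-5p was most like miR-219c-3p (0.97), miR-210-3p (0.86) and miR-144-5p (0.85). miR-144-5p, named for both, is one of the red blood cell markers and measured 46.6 to 162 RPM, highest in M3.

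M1 was the highest library for 9 of these 15 entries, which are all of those named for miR-16-5p, miR-15a-5p and miR-15b-5p. Without M1 only 2 of the 15 stayed among the nearest 3, miR-132-3p for miR-15a-5p and miR-219c-3p for miR-497a-5p.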

How the data were processed

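Small RNA libraries (NEBNext kit) were made by the authors from liver RNA and sequenced. They filtered the reads, compared them with Rfam and miRBase, and deposited RPM, in which each miRNA's reads were divided by the library's total of miRNA reads. The submitters' processing notes name mm9. The aligner and the rule for reads with several matches are not given in the sources used here. All values (100%, tolerance 0.001) were whole multiples of the RPM of 1 read, so reads were recovered.

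Groups came from the labels. RPM was tested as log2(RPM + 1) by limma 3.58.1 in R 4.3.3 (variance trend, two-sided) over 548 miRNAs with a mean RPM above 1 in either group, with Benjamini-Hochberg adjustment over all of them. A fold change on this scale understates the change of low miRNAs. The thresholds, 0.3 on the log2 scale and p under 0.05, are those of the study. Alternatives were edgeR 4.0.16 and DESeq2 1.42.0 on recovered reads, added values of 0.1 and 10 RPM, no filter and a filter of 10 RPM, other scalings, a replicate block and each library left out. Ratios and the order of levels were tested by exact permutation in Python 3.11.15 (numpy 2.4.6, pandas 2.3.3, scipy 1.17.1), and figures drawn with matplotlib 3.10.9. Scripts were tested on simulated data. Sequences are RefSeq's and positions those of GRCm38, matched by name only.

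The members and lists were chosen with earlier results of these data known. Named are all members, miRNAs of the table with the same seed, the 3 miRNAs most like each 5p arm, and list members past the thresholds. Values of miR-503-5p and of the shares within pairs were named outside this rule, after they were seen. PCR copies were not told apart, so Wilson intervals (95%) cover counting error only. Predicted targets, tissue sections and glucose values were not used here.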

Additional observations from a re-analysis of the deposited data

How the results depend on the processing

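Over 157 refits of a log2 fold change of 9 members (all tested but miR-16-2-3p) and miR-322-5p, 145 kept their direction and side of the thresholds, 8 changed sign and 4 passed. The number of members past the thresholds was 0 in each of the 16 alternatives except without M2, where it was 2 (range 0 to 2 with single libraries left out), namely miR-15b-5p and miR-15b-3p. With single libraries left out, the log2 difference ranged from -0.41 to 0.00 for miR-15a-5p, from -1.18 to 0.37 for miR-15b-3p, from -1.39 to -0.17 for miR-15b-5p, from -0.18 to 0.19 for miR-195a-3p, from -0.27 to 0.30 for miR-497a-5p, from -0.52 to -0.13 for miR-16-5p, from -0.33 to -0.07 for miR-195a-5p, from 0.04 to 0.52 for miR-16-1-3p, from -0.74 to -0.22 for miR-15a-3p and from -0.86 to -0.43 for miR-322-5p. Over the other settings it ranged from -0.37 to -0.16 for miR-16-5p, from -0.24 to 0.09 for miR-195a-5p and for miR-15a-5p, from -1.10 to -0.57 for miR-15b-5p, from 0.04 to 0.36 for miR-497a-5p, from 0.14 to 0.37 for miR-16-1-3p, from -0.80 to -0.17 for miR-15b-3p, from 0.01 to 0.18 for miR-195a-3p, from -0.66 to -0.14 for miR-15a-3p and from -0.68 to -0.42 for miR-322-5p. Quantile normalization gave 0.09 for both miR-15a-5p and miR-195a-5p, and an added 10 RPM turned the group difference in the arm ratio of miR-15a from 0.28 to -0.06. The cause was not tested. Over all miRNAs, 29 passed in the analysis as reported, against 45 by edgeR (18 higher, 27 lower), 46 without M2 and 21 to 37 in the other alternatives. The replicate numbers come from the labels, which do not say whether they pair mice. Deviations of same-numbered libraries correlated at 0.045, 0.058 and -0.006. A replicate block gave 27 of 548 miRNAs past the thresholds and 0 members. With 3 mice per group, the 95% intervals of the 5p arms reach down to between -0.72 and -2.28 on the log2 scale, and 3p arms under 20 reads per library are limited by depth.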
